A study of Mus musculus with 10 samples.

Results

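The 10 genes described here make up most of the core circadian clock and its first output layer. They are the period genes Per1, Per2 and Per3, the cryptochromes Cry1 and Cry2, the nuclear receptors Nr1d1 and Nr1d2 (REV-ERB alpha and beta), the transcription factors Dbp and Tef, and Arntl, which encodes BMAL1. They were taken from the deposited table by gene name, and all 10 were found among its 54532 genes. The cells are primary peritoneal macrophages of mice, as 3 RNA libraries labelled aged and Trem1-/- (replicates 1, 2 and 3), 3 labelled aged and wild type, WT (replicates 3, 4 and 6), and 4 labelled young and WT (replicates A, B, C and E). Trem1 encodes a cell surface receptor of myeloid cells, and the series set the effect of its loss against that of age. The labels give no age in months, no sex, no strain, no time of day at which cells were taken, no young Trem1-/- group and no detail of how the allele was made. They do not say that libraries came from separate mice, so the p-values cover only the spread among these libraries, part of which may be technical.

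In the clock, BMAL1 and its partner CLOCK bind E-box sequences and switch on the Per, Cry, Nr1d, Dbp and Tef genes. PER and CRY proteins then block that pair, and the REV-ERB receptors repress Arntl itself, competing with the activating ROR receptors. In a running clock, Arntl transcripts therefore peak when those of Nr1d1, Dbp and the Per genes are low, and mouse peritoneal macrophages are known to run such a clock of their own. As the labels give no time of day, clock phase at collection and group cannot be told apart in any comparison below. Arntl is called the positive arm below. Per1, Per2, Per3, Cry1, Cry2, Nr1d1 and Nr1d2 are the 7 genes of the negative arm, and Dbp and Tef, activators that bind D-box sequences, are outputs.

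Promoters are shown for the 3 repressor genes Cry1, Cry2 and Nr1d1, for Per3, whose window holds D-boxes, and for Arntl, which stands on the other side of the loop. Each run is the 250 bases before the RefSeq start site (GRCm38.p6), written 5′ to 3′ along the gene, with motif matches in capitals.
Cry1, chr10:85185055-85185304, minus strand: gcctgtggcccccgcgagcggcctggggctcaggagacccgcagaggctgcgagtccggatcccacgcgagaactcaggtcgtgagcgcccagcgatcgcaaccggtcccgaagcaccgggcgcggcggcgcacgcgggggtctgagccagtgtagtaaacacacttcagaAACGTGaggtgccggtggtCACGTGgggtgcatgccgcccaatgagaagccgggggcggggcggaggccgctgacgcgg
Cry2, chr2:92434070-92434319, minus strand: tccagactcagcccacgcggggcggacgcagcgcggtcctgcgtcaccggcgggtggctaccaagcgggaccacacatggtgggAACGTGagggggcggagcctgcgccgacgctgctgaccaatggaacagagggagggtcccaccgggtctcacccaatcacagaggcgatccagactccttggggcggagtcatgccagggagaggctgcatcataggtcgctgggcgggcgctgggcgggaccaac
Nr1d1, chr11:98775378-98775627, minus strand: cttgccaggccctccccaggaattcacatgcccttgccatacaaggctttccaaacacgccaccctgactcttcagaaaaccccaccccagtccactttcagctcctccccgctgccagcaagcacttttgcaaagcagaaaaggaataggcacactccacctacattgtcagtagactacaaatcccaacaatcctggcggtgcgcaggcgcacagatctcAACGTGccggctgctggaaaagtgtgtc
Per3, chr4:151044666-151044915, minus strand: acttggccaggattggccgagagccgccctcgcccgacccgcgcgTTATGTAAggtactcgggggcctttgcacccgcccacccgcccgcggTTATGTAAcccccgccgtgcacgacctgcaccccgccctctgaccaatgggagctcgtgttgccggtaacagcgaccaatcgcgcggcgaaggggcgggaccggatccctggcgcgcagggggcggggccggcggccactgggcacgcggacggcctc
Arntl, chr7:113207215-113207464, plus strand: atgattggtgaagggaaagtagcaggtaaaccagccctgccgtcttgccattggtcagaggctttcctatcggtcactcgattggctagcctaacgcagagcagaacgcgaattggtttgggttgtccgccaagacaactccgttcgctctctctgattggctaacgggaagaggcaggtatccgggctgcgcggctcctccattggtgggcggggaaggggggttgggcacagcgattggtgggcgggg
The motifs searched on both strands were the canonical E-box CACGTG, the E'-box CACGTT, the D-boxes TTATGTAA and TTACGTAA, the ROR elements TAGGTCA and TGGGTCA, the cAMP response element TGACGTCA and the glucocorticoid response element, GNACA and TGTNC 3 bases apart. They occur in 6.02%, 3.85%, 0.819%, 0.113%, 2.23%, 3.24%, 1.55% and 0.387% of all 32851 windows of this length, in that order. Cry1 held 1 canonical E-box and 1 E'-box, Cry2 and Nr1d1 1 E'-box each, and Per3 2 D-boxes. The Arntl window printed and the other one listed for Arntl held none of these letters. Bases outside these windows were not searched, so a window without a match does not mean a gene without the element. Of the members not printed, the first Per1 window and both Tef windows held 1 canonical E-box each, and the windows of Nr1d2 and Dbp held no match. No matches overlapped. A window was listed for 9 of the 10 genes, all but Per2.

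Values below are normalized read counts, which are the reads of a library divided by a size factor. The libraries held 2663744 to 5603498 reads, and 3 reads correspond to 1.85 to 3.84 normalized counts. The libraries differed in composition beyond the groups' labels. Aged WT libraries gave 8.38% to 12.9% of their reads to the noncoding RNA Gm26917, against 4.999% to 5.70% in the other 7. Aged WT libraries also gave 3.17% to 5.26% to mitochondrial genes, against 1.26% to 2.39% labelled Trem1-/- and 1.19% to 2.13% in young WT. Summed over 8 macrophage markers, including Adgre1 and Csf1r, they held 22848 to 36990 normalized counts, against 61761 to 78647 in the libraries labelled Trem1-/- and 72173 to 79183 in young WT, and no macrophage marker was at 0. Summed over 8 B cell markers they held 12500 to 20197, against 5772 to 12362 labelled Trem1-/- and 2322 to 5028 in young WT. Sums over 8 T and NK cell markers were 207 to 347 in aged WT, 41.9 to 81.7 labelled Trem1-/- and 32.5 to 64.5 in young WT. The part of this makeup in the results below was not tested, and in bulk RNA fewer cells of a type and less RNA per cell cannot be told apart. Trem1 itself was read in every library labelled Trem1-/- (23, 132 and 12 reads in replicates 1, 2 and 3), beside 50, 14 and 30 reads in aged WT and 17, 13, 10 and 21 in young WT, and the genotype is used here as labelled.

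The cryptochromes are the inhibitors that hold CLOCK and BMAL1 inactive, and Cry1 had the largest log2 fold change between aged and young WT of the 10 genes. Cry1 (ENSMUSG00000020038.10) lies at chr10:85131700-85185064 on the minus strand and Cry2 (ENSMUSG00000068742.11) at chr2:92403646-92434043 on the minus strand (GRCm38). Cry1 had 74.2, 43.6 and 58.4 normalized counts in aged WT replicates 3, 4 and 6, against 8.72, 21.6, 14.4 and 11.6 in young WT replicates A, B, C and E. Every aged WT library lay above every young one. The log2 fold change was 2.02 ± 0.29 (SE), with a limma adjusted p of 0.000569. Libraries labelled Trem1-/- held 29.6, 26.4 and 26.4 normalized counts of Cry1, between the other groups and with little spread. They were lower than aged WT by a log2 fold change of -1.04 ± 0.31 (limma adjusted p = 0.0398), with no overlap. This call was lost in 7 of 18 alternatives, among them leaving out any one library labelled Trem1-/-, aged WT replicate 3 or 6 or young replicate C (limma adjusted p 0.0216 to 0.142 over all 18). Against young WT the same libraries had a log2 fold change of 0.99 ± 0.29, which did not pass (limma adjusted p = 0.145).

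Cry2, the second cryptochrome, had 60.2, 38.2 and 38.6 normalized counts in aged WT replicates 3, 4 and 6, against 15.7, 30.2, 28.8 and 24.4 in young replicates A, B, C and E. It rose in aged WT by 0.86 ± 0.30 on the log2 scale (limma adjusted p = 0.0464), close to the threshold of 0.05. The call was lost in 9 of 18 alternatives (adjusted p 0.0209 to 0.181). Libraries labelled Trem1-/- held 66.4, 52.1 and 31.0 normalized counts of Cry2 in replicates 1, 2 and 3, so Cry2 was near the aged WT level while Cry1 was below it. The Cry2 difference between the aged groups was 0.09 on the log2 scale, with a 95% confidence interval of -0.62 to 0.80. The ratio of Cry1 to Cry2 within a library was 0.446, 0.508 and 0.852 labelled Trem1-/-, 1.23, 1.14 and 1.51 in aged WT, and 0.476 to 0.714 in young WT. Aged WT libraries thus held more Cry1 than Cry2 reads, and every other library held fewer.

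Arntl (ENSMUSG00000055116.8, chr7:113207465-113314126, plus strand) moved the other way. It had 64.0, 97.1 and 117.7 normalized counts in aged WT replicates 3, 4 and 6, against 146, 153, 172 and 141 in young replicates A, B, C and E. The groups did not overlap, and Arntl fell in aged WT by 0.75 ± 0.20 on the log2 scale (limma adjusted p = 0.0123). This call held in all 19 alternatives (adjusted p 0.00728 to 0.0462). Libraries labelled Trem1-/- held 109, 77.7 and 97.5 normalized counts of Arntl, also below every young library. Their log2 fold change against young WT was -0.69 ± 0.20, of much the same size, but it did not pass (limma adjusted p = 0.123), and passed with DESeq2, with the 2 groups fitted alone or without aged WT replicate 3 (adjusted p 0.0361 to 0.294 over 19 alternatives). Between the aged groups the log2 difference was 0.06, with a 95% confidence interval of -0.40 to 0.52.

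**Figure D1:**
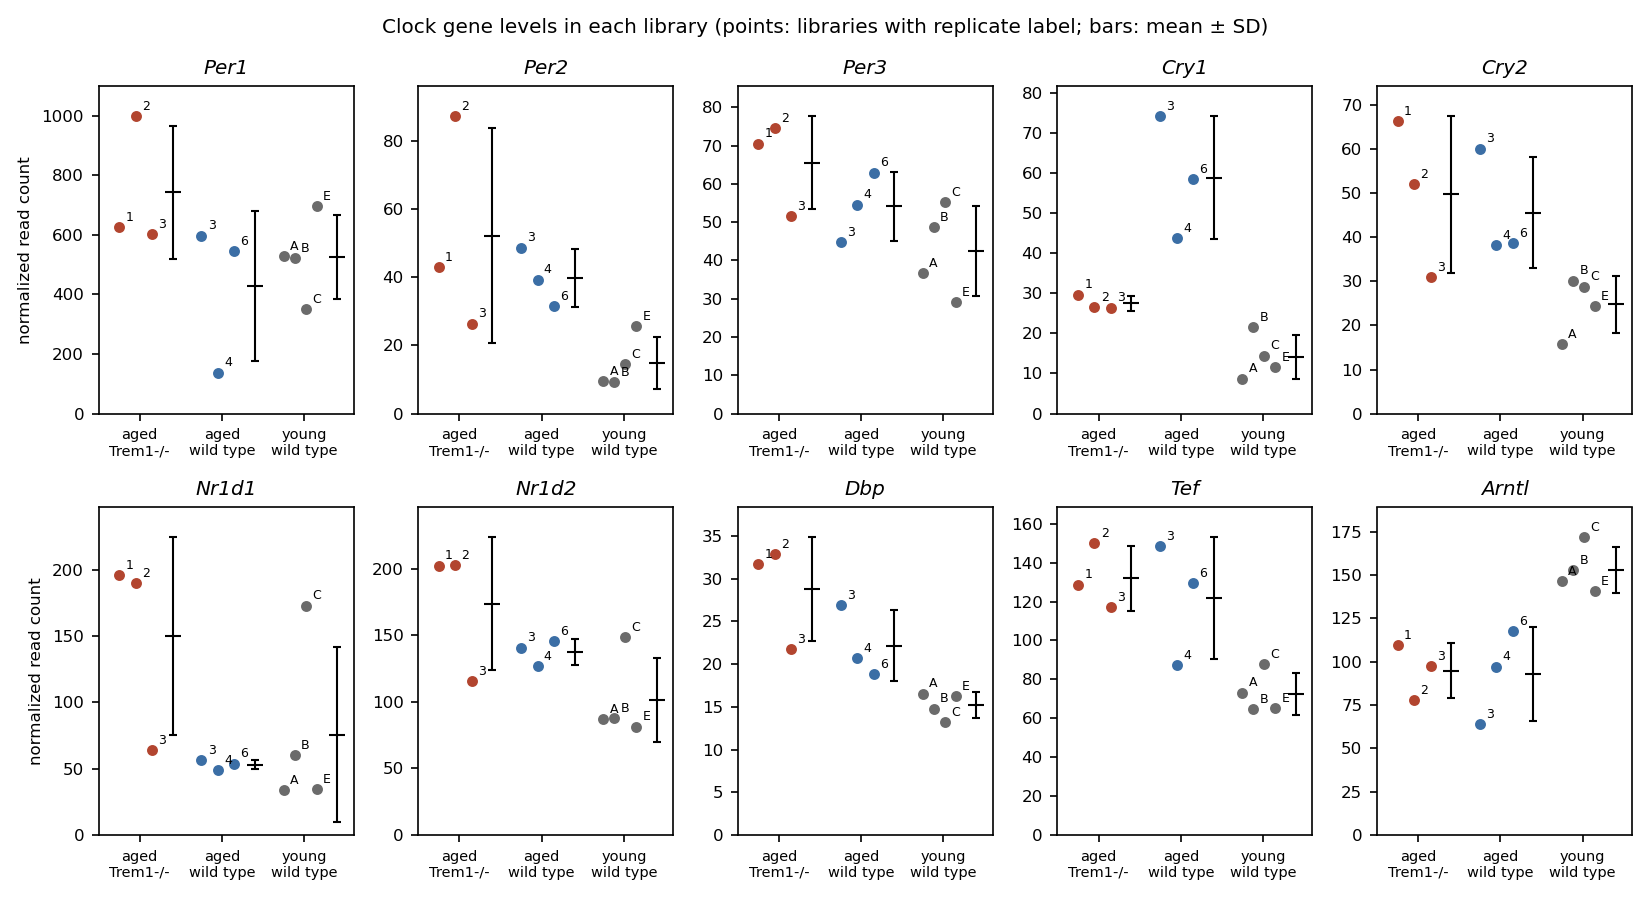
Normalized read counts (vertical axes) of the 10 clock genes in aged Trem1-/-, aged WT and young WT libraries; points are libraries with their replicate label, and bars are mean ± SD. Arntl is lower and Cry1, Per2, Cry2 and Dbp are higher in every aged library than in every young one. The share of all genes that divide the libraries in this way was not computed. Nr1d1 is high in Trem1-/- replicates 1 and 2 and in young replicate C.

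Of the period genes, whose proteins pair with the cryptochromes, Per2 (ENSMUSG00000055866.9, chr1:91415982-91459324, minus strand) differed between aged and young WT and the others did not pass. Per2 had 48.6, 39.3 and 31.4 normalized counts in aged WT replicates 3, 4 and 6, against 9.59, 9.24, 14.4 and 25.6 in young replicates A, B, C and E. Each aged WT library was above each young one, although the counts are small, at 35 to 38 reads in aged and 11 to 22 in young libraries. Per2 rose by 1.47 ± 0.42 on the log2 scale (limma adjusted p = 0.0186), which did not pass once aged WT replicate 3 was left out (adjusted p = 0.0714, the highest of a range from 0.00845 over 18 alternatives). Libraries labelled Trem1-/- held 42.9, 87.3 and 26.4 normalized counts of Per2 in replicates 1, 2 and 3, all above the young libraries. The log2 fold change against young WT was 1.71 ± 0.42 (limma adjusted p = 0.0767), and it passed with DESeq2 and with no filter on low counts (adjusted p 0.00638 to 0.205 over 18 alternatives).

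Per1, the period gene that also answers directly to stress signals and glucocorticoids, was the most variable of the 3 within aged WT. It had 598, 137 and 546 normalized counts in aged WT replicates 3, 4 and 6, against 529.9, 522, 351 and 697 in young replicates A, B, C and E. Replicate 4 stood far below the other aged WT libraries, and the groups overlapped. The log2 fold change was -0.52 ± 0.43 (limma adjusted p = 0.387), and without that library it was 0.16, so its sign rested on 1 library. Replicate 4 also held the most globin and other erythroid marker reads of the 10 libraries, and the part this played was not tested. Libraries labelled Trem1-/- held 625, 1001 and 603 normalized counts of Per1, each above all aged WT libraries, but the log2 difference of 1.02 ± 0.46 did not pass (limma adjusted p = 0.145). Per3, whose product is a weaker repressor than those of its paralogs, had 44.8, 54.6 and 62.9 normalized counts in aged WT, against 36.6, 48.6, 55.2 and 29.1 in young WT. Its log2 fold change was 0.37 ± 0.24 (limma adjusted p = 0.247), and 0.64 ± 0.24 for libraries labelled Trem1-/- (70.5, 74.5 and 51.6 normalized counts) against young WT (limma adjusted p = 0.233).

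Nr1d1 (ENSMUSG00000020889.11, chr11:98767932-98775333, minus strand) was high in single libraries of 2 groups. It had 196, 189.9 and 64.2 normalized counts in replicates 1, 2 and 3 labelled Trem1-/-, 56.3, 49.1 and 53.9 in aged WT replicates 3, 4 and 6, and 34.0, 60.3, 173 and 34.9 in young replicates A, B, C and E. The high libraries were 2 labelled Trem1-/- and 1 young, and all aged WT libraries lay close together. The log2 fold change of libraries labelled Trem1-/- against aged WT was 1.32 ± 0.56 (limma adjusted p = 0.121), with no overlap, and it passed without Trem1-/- replicate 3 or young replicate C (adjusted p 0.0437 to 0.297 over 19 alternatives). Against young WT it was 1.16 ± 0.52 (limma adjusted p = 0.343). For aged against young WT it was -0.16 ± 0.52 (limma adjusted p = 0.837), and 0.34 without young replicate C. Of the exonic bases of Nr1d1, 8.55% overlap Thra on the opposite strand. Whether counting used strand is not given in the sources used here, so reads there cannot be assigned to 1 of the genes.

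Its paralog Nr1d2 showed the same libraries high with a smaller spread. It had 202, 203 and 115.9 normalized counts in replicates 1, 2 and 3 labelled Trem1-/-, 141, 127 and 146 in aged WT, and 87.2, 88.1, 149 and 81.4 in young replicates A, B, C and E. Apart from young replicate C, every young library lay below every aged one of either genotype. No comparison of Nr1d2 passed, with log2 fold changes of 0.48 ± 0.24 for aged against young WT (limma adjusted p = 0.141) and 0.77 ± 0.24 for libraries labelled Trem1-/- against young WT (limma adjusted p = 0.156). The first passed without young replicate C, where it was 0.68 (adjusted p = 0.0307, the lowest of a range up to 0.283 over 19 alternatives). The ratio of Nr1d1 to Nr1d2 was 0.37 to 0.40 in all aged WT libraries, but 0.97, 0.937 and 0.554 in those labelled Trem1-/- and 0.39, 0.685, 1.16 and 0.429 in young replicates A, B, C and E.

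The output genes Dbp (ENSMUSG00000059824.12, chr7:45705088-45710203, plus strand) and Tef (ENSMUSG00000022389.15, chr15:81802421-81826863, plus strand) had higher means in both aged groups, and the Tef difference passed in aged WT. Tef had 129, 149.8 and 117 normalized counts in libraries labelled Trem1-/-, 148, 87.3 and 129 in aged WT replicates 3, 4 and 6, and 73.2, 64.7, 87.7 and 65.1 in young replicates A, B, C and E. Aged WT replicate 4 overlapped young replicate C, and the other aged libraries were above all young ones. Tef rose in aged WT by 0.71 ± 0.19 on the log2 scale (limma adjusted p = 0.0133), which did not pass once aged WT replicate 3 or 6 was left out (adjusted p 0.00139 to 0.0639 over 19 alternatives). The log2 fold change of libraries labelled Trem1-/- against young WT was 0.85 ± 0.19 (limma adjusted p = 0.0564), and 5 of 19 alternatives passed (adjusted p 0.00625 to 0.152). Dbp, the least read of the 10 genes, had 31.7, 32.8 and 21.8 normalized counts labelled Trem1-/-, 26.9, 20.7 and 18.9 in aged WT and 16.6, 14.8, 13.2 and 16.3 in young WT. Both aged groups lay above young WT without overlap, at log2 fold changes of 0.51 ± 0.24 for aged WT (limma adjusted p = 0.130) and 0.86 ± 0.24 for libraries labelled Trem1-/- (limma adjusted p = 0.12). Exons of the gene Sphk2 on the opposite strand cover 18.01% of the exonic bases of Dbp.

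Counted together, 4 of the 10 genes rose in aged against young WT (Per2, Cry1, Cry2 and Tef), 1 fell (Arntl) and 5 did not pass. Over all 11506 genes tested, 14.3% rose and 19% fell in that comparison, 33.3% in all (32.6% with edgeR and 30.4% with DESeq2). Without overlap, 4 of the 10 lay above young WT (Per2, Cry1, Cry2 and Dbp) and 1 below, where 18.4% of all genes lay above and 21.9% below. With totals that leave out Gm26917 and mitochondrial genes, 2650 genes rose and 1444 fell, against 1647 and 2190, and 7 of the 10 clock genes passed, Nr1d2 and Dbp being the added ones. The median log2 fold change of the 10 genes was 0.49, beside -0.02 over all genes tested. As the members were chosen with earlier results of these data known, neither these counts nor this median is evidence about the set. Without aged WT replicate 3 the count of 5 calls was 2, and without replicate 6 it was 3. In the authors' deposited table of this comparison, Cry1, Tef, Arntl and Per2 had adjusted p-values of 6.71e-07, 0.00613, 0.00904 and 0.0151, and Cry2 had 0.0647.

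For libraries labelled Trem1-/- against aged WT, 1 of the 10 genes fell (Cry1), none rose and 9 did not pass with limma. Per1 and Nr1d1 (higher) and Cry1 (lower) had an unadjusted limma p under 0.05, as did 3914 of all 11506 genes tested. The tools edgeR and DESeq2 also called Cry1 alone. Over all genes 11.5% were higher and 6.82% lower with limma (18.4% in all, 18.1% with edgeR and 18.5% with DESeq2). Per1 and Nr1d1 lay above aged WT without overlap and Cry1 below, 2 and 1 of the 10, where 19.4% of all genes lay above and 15.5% below. That split of all genes was 1327 higher and 785 lower, and 748 higher and 1785 lower with totals that leave out Gm26917 and mitochondrial genes. Without Trem1-/- replicate 1 or 2, or aged WT replicate 3 or 6, the count was 0. Against young WT none of the 10 passed with limma or with edgeR. Over all genes 0.921% passed with limma (0.591% higher and 0.33% lower) and 0.695% with edgeR. An unadjusted limma p under 0.05 was found in 9 of the 10, all but Per1, and in 1654 of all 11506 genes tested. DESeq2 called 3 of the 10 (Per2, Tef and Arntl), beside 3.65% of all genes. With totals that leave out Gm26917 and mitochondrial genes 58 of all genes rose and 63 fell, against 68 and 38. The median log2 fold change of the 10 was 0.86, beside 0.01 over all genes tested. Without overlap, 5 of the 10 genes lay above young WT and 1 below, where 8.05% of all genes lay above and 7.72% below. The comparisons of the aged groups with young WT share the young libraries, so their directions are not independent. Both comparisons with aged WT share the aged WT libraries, so opposite directions there are not independent either. The members were chosen with earlier results known, so these counts and the median are no evidence about the set.

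**Figure D2:**
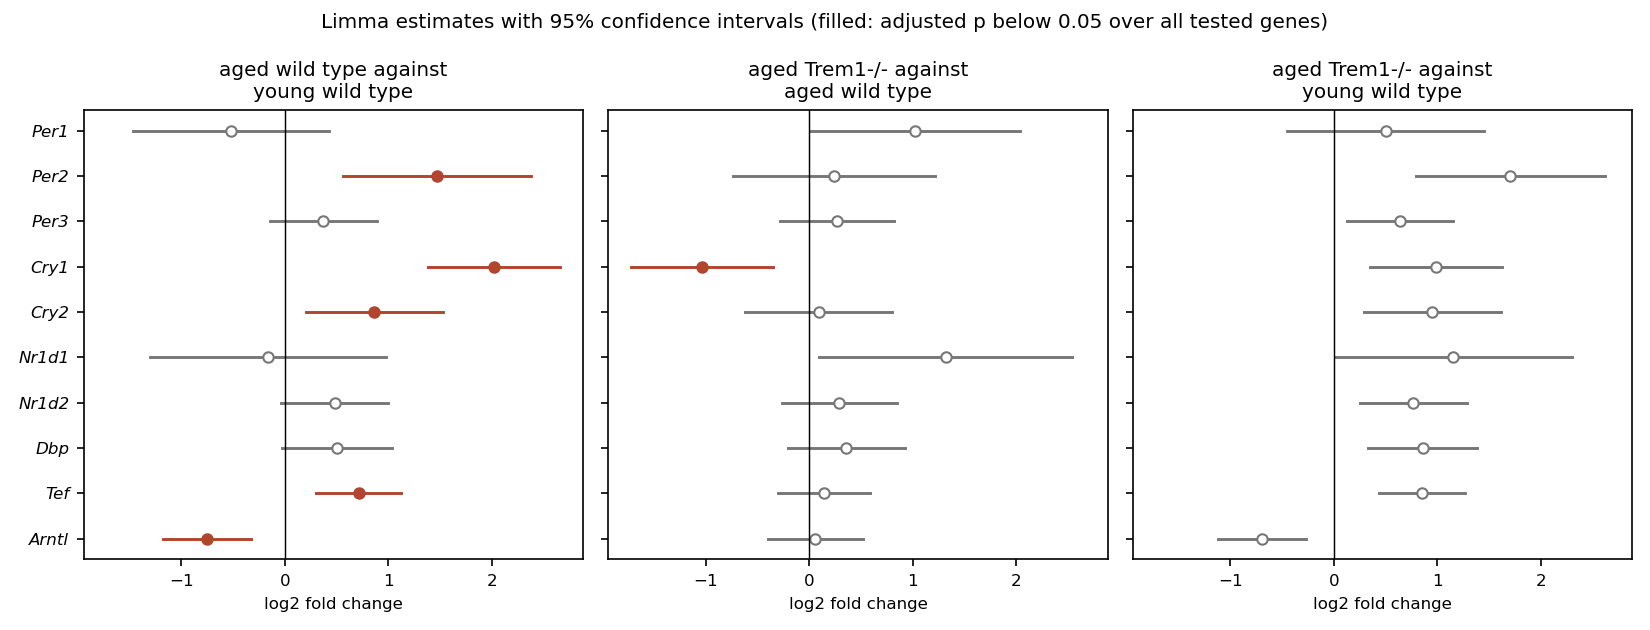
Log2 fold changes (horizontal axes) of the 10 clock genes in 3 comparisons, from limma, with 95% confidence intervals; filled points have an adjusted p below 0.05 over all 11506 genes tested. Aged WT has 5 filled points, with Arntl opposite to the others, Trem1-/- against aged WT has 1 (Cry1), and Trem1-/- against young WT has none although 9 intervals lie on one side of 0.

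Set against each other, the arms separated young from aged libraries, and Arntl alone did so too. For each library, the mean over the 7 negative-arm genes of log2(normalized count + 1), centred on the mean of the 10 libraries, was compared with the same value for Arntl. The negative arm minus Arntl was 0.69, 1.35 and 0.17 in replicates 1, 2 and 3 labelled Trem1-/-, 1.21, 0.07 and 0.17 in aged WT replicates 3, 4 and 6, and -1.24, -0.83, -0.74 and -0.85 in young replicates A, B, C and E. All 6 aged libraries were above 0 and all 4 young ones below. Centred Arntl alone was 0.318 to 0.604 in young libraries and -0.806 to 0.063 in aged ones. How many of all genes divide the 6 aged from the 4 young libraries was not computed. The negative arm alone overlapped, with aged WT replicate 4 (-0.145) below young replicate C (-0.134). Within each aged group the values were far apart, and the widest gap between the arms was in Trem1-/- replicate 2 and aged WT replicate 3. The value is a description of the libraries and was not tested as a score. Age and clock phase at collection cannot be told apart in it.

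Ratios to Arntl within a library, which do not depend on how libraries were scaled, gave the same division for most genes. All of them share Arntl, which by itself divided aged from young libraries, so they are not separate evidence for each gene. The ratio of Per2 to Arntl was 0.271 to 1.12 labelled Trem1-/-, 0.267 to 0.760 in aged WT and 0.0605 to 0.182 in young WT. For Cry1 it was 0.271 to 0.340, 0.449 to 1.16 and 0.0595 to 0.141 in the same groups. For Tef it was 1.18 to 1.93 labelled Trem1-/-, 0.899 to 2.32 in aged WT and 0.423 to 0.51 in young WT, and for Dbp 0.224 to 0.423, 0.16 to 0.42 and 0.0769 to 0.116. The ratios of Nr1d2 were 1.19 to 2.61, 1.24 to 2.2 and 0.577 to 0.867. In the ratios of these 5 genes, and of Per3 and Cry2, no aged library of either genotype overlapped a young one. Before division by Arntl, counts of Per3, Tef and Nr1d2 did overlap between aged and young libraries. The share of all genes that would be divided in this way was not computed. Ratios of Nr1d1 and Per1 did overlap, with Nr1d1 at 1.007 in young replicate C and Per1 at 1.42 in aged WT replicate 4.

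**Figure D3:**
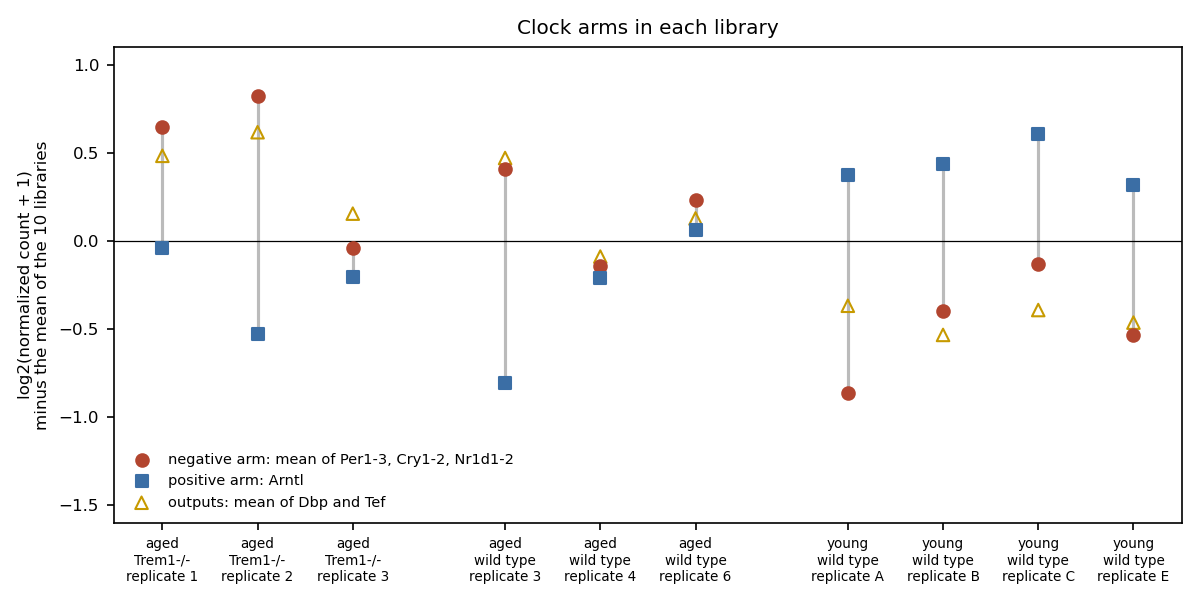
Centred log2 levels (vertical axis) of the negative arm (circles, mean of 7 genes), Arntl (squares) and the outputs Dbp and Tef (triangles, mean) in each library. Arntl lies above the negative arm in the 4 young libraries and below it in the 6 aged ones, where aged WT replicates 4 and 6 and Trem1-/- replicate 3 have the smallest gaps.

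Levels between genes were compared per kilobase of annotated exon. Per1 was the highest of the 10 in each group, at 132 ± 39.7 normalized counts per kb labelled Trem1-/-, 75.9 ± 44.8 in aged WT and 93.2 ± 25.1 in young WT (SD, n = 3, 3 and 4). In young WT Nr1d1 (24.5 ± 21.5), Arntl (20.3 ± 1.80) and Nr1d2 (18.7 ± 5.89) came next and did not differ beyond their spread. In aged WT Nr1d2 was second (25.4 ± 1.82), followed by Cry1 (17.6 ± 4.58), Nr1d1 (17.3 ± 1.19) and Tef (15.5 ± 3.98), which did not differ beyond their spread. Cry1 stood at 4.21 ± 1.65 per kb in young WT and 8.23 ± 0.556 labelled Trem1-/-, near Cry2 in both. Per2 was the lowest in young WT, at 2.51 ± 1.30 per kb.

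Clock and Rora, a partner of BMAL1 and a receptor that activates Arntl, were lower in aged WT. Of 6 listed genes, among them Clock, Npas2 and Rora, 2 were read enough to be tested, and both fell with limma and edgeR, beside 19% of all genes lower with limma. DESeq2 called Clock alone. Clock had 228, 232 and 261 normalized counts in aged WT replicates 3, 4 and 6, against 343, 327, 298 and 319.6 in young replicates A, B, C and E, and fell by 0.42 ± 0.11 on the log2 scale (limma adjusted p = 0.0116). Rora, the nuclear receptor that opposes REV-ERB at the Arntl promoter, had 32.0, 32.7 and 21.6 against 48.8, 43.1, 57.6 and 41.8 normalized counts, and fell by 0.73 ± 0.22 (limma adjusted p = 0.027). Neither gene overlapped between these groups. Rora was higher labelled Trem1-/- than in aged WT by 0.82 ± 0.24 on the log2 scale (limma adjusted p = 0.0348), at 49.0, 66.5 and 40.1 normalized counts. Clock (273, 307 and 344) differed by 0.35 ± 0.12 and did not pass (limma adjusted p = 0.0545). These comparisons share the aged WT libraries, so their opposite directions are not independent. Calls of Clock and Rora depended on scaling, and with totals that leave out Gm26917 and mitochondrial genes the falls in aged WT were -0.24 and -0.55 (limma adjusted p = 0.121 and 0.0689) and the Rora difference between the aged groups was 0.62 (limma adjusted p = 0.0763). Npas2, a CLOCK paralog, had at most 4.49 normalized counts in any library and 0 reads in the 4 young ones, where 3 reads would be 1.85 to 3.60.

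Among 5 other clock transcription factors (Hlf, Nfil3, Bhlhe40, Bhlhe41 and Ciart) 3 were tested, and the paired repressors Bhlhe40 and Bhlhe41 moved in opposite directions. Bhlhe41 (DEC2), also known from B-1 cells, had 366, 258 and 386 normalized counts in aged WT replicates 3, 4 and 6, against 80.2, 76.4, 96.1 and 45.3 in young replicates A, B, C and E. It rose by 2.19 ± 0.36 on the log2 scale (limma adjusted p = 0.001003), beside the higher B cell marker sums given above, whose part in it was not tested. Bhlhe40 (DEC1), known for its role in resident peritoneal macrophages, had 375, 780.2 and 394 against 766, 821, 659 and 1031 normalized counts, overlapping in replicate 4, and fell by 0.73 ± 0.26 (limma adjusted p = 0.0455), a call that neither edgeR nor DESeq2 made and that was lost with totals that leave out Gm26917 and mitochondrial genes (limma adjusted p = 0.0926). Against aged WT, libraries labelled Trem1-/- had lower Bhlhe41 (173, 64.9 and 196 normalized counts, a difference of -1.34 ± 0.38 on the log2 scale with a limma adjusted p of 0.0312) and higher Bhlhe40 (909, 1334 and 819, 1.03 ± 0.27, limma adjusted p = 0.0242). As the aged WT libraries serve in both comparisons, the opposite directions of each gene are not independent. Hlf, a relative of Dbp and Tef, was below the level tested. It was read at 3.27 to 7.68 normalized counts in aged WT, at 0 to 2.40 in the libraries labelled Trem1-/- and at 0 in 3 of 4 young libraries.

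Clock proteins are tagged and degraded by modifying enzymes. Of 15 kinases, ubiquitin ligases, a phosphatase and other modifiers, 13 were tested, and 1 rose and none fell in aged WT with limma, edgeR and DESeq2 (1 was lower at an unadjusted limma p under 0.05), beside 14.3% of all genes higher and 19% lower with limma. This was Btrc, a ubiquitin ligase subunit that marks PER proteins for degradation, at 129, 76.4 and 94.3 normalized counts against 64.5, 51.1, 67.3 and 34.9 in young WT, a log2 fold change of 0.88 ± 0.24 (limma adjusted p = 0.0169). The median over the 13 was -0.02, as over all genes tested. Csnk1d and Csnk1e, the kinases of PER, had log2 fold changes of -0.02 ± 0.10 and 0.24 ± 0.18 in aged against young WT. Between the aged groups none of the 13 passed with limma, where 2 had an unadjusted p under 0.05. There edgeR called Btrc (lower labelled Trem1-/-) and DESeq2 called Gsk3b. The shares of all genes called were 18.4% with limma, 18.1% with edgeR and 18.5% with DESeq2. For libraries labelled Trem1-/- against young WT limma, edgeR and DESeq2 each called 0, with 0 at an unadjusted p under 0.05. These tools called 0.921%, 0.695% and 3.65% of all genes in that comparison.

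Of 15 listed clock-controlled genes 13 were tested. In aged WT 3 of the 13 fell with limma, near the 19% of all genes that were lower. None rose with limma, edgeR or DESeq2 (0 higher at an unadjusted limma p under 0.05). Those that fell were Tspo, a mitochondrial outer membrane protein (-0.81 ± 0.13), Alas1, the first enzyme of haem synthesis (-0.48 ± 0.12), and Lonrf3 (-1.18 ± 0.24), all on the log2 scale against young WT. Tspo, Alas1 and Nfe2l2, the gene of the antioxidant regulator NRF2, were the 3 of 13 that were higher labelled Trem1-/- than in aged WT, beside 11.5% of all genes, at 0.62 ± 0.14, 0.46 ± 0.13 and 0.80 ± 0.22 on the log2 scale. Both comparisons use the aged WT libraries, so the opposite directions of Tspo and Alas1 are not independent. Noct, a rhythmic gene of RNA and NADPH metabolism, had a log2 fold change of 0.91 ± 0.50 in aged against young WT and did not pass (limma adjusted p = 0.182). With totals that leave out Gm26917 and mitochondrial genes the Alas1 call in aged against young WT was lost (limma adjusted p = 0.0743), and so were those of Tspo, Alas1 and Nfe2l2 between the aged groups (limma adjusted p = 0.0501, 0.177 and 0.0552). The median over the 13 was -0.46 in aged against young WT and 0.29 labelled Trem1-/- against aged WT, beside -0.02 and 0.02 over all genes tested.

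Glucocorticoids reset clocks outside the brain, partly through Per1, so 16 genes known to respond to them were set beside the members; Zbtb16 and Map3k6 were listed with their difference here already known. Of the 15 tested, 4 were higher labelled Trem1-/- than in aged WT with limma and edgeR (Zbtb16, Klf9, Map3k6 and Mt1). DESeq2 called these and Cebpd. None was lower with limma, edgeR or DESeq2 (0 lower at an unadjusted limma p under 0.05). Over all genes 11.5% were higher and 6.82% lower with limma. As Zbtb16 and Map3k6 were already known to differ, neither this count nor the median that follows is evidence about the list. The median log2 fold change was 0.81, beside 0.02 over all genes tested. The Mt1 call was lost with totals that leave out Gm26917 and mitochondrial genes (limma adjusted p = 0.0602). In aged against young WT 3 fell with limma and edgeR (Zbtb16, Klf9 and Sesn1), a share near the 19% of all genes that were lower with limma. DESeq2 called 5 lower, adding Cdkn1a and Map3k6, beside 1954 of all 11506 genes tested. None rose with any of these tools (0 higher at an unadjusted limma p under 0.05). The median log2 fold change of the 15 was -0.63, beside -0.02 over all genes tested. Klf9, a transcription factor that is both rhythmic and induced by glucocorticoids, had 406, 406 and 259 normalized counts labelled Trem1-/-, 141, 93.8 and 98.8 in aged WT, and 256, 279, 371 and 285 in young replicates A, B, C and E. Its log2 fold change was 1.67 ± 0.21 labelled Trem1-/- against aged WT (limma adjusted p = 0.00166) and -1.42 ± 0.20 for aged against young WT (limma adjusted p = 0.000483). These comparisons share the aged WT libraries.

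Of the 15 glucocorticoid-responsive genes tested, 4 had their 3 highest values in the 3 libraries with the highest Nr1d1 and 11 did not. The 4 genes, Fkbp5, Zbtb16, Klf9 and Map3k6, are described because they share that order, so their likeness to Nr1d1 is no finding. Fkbp5, an inhibitor of the glucocorticoid receptor that the receptor induces, had 694, 949 and 132 normalized counts in replicates 1, 2 and 3 labelled Trem1-/-, 198, 79.7 and 73.7 in aged WT, and 94.1, 93.0, 519 and 155 in young replicates A, B, C and E. Zbtb16, a transcription factor, had 544, 519 and 151, then 89.6, 65.5 and 51.2, and then 199, 204, 454 and 214 normalized counts in the same order. Trem1-/- replicates 1 and 2 and young replicate C held the 3 highest values of Nr1d1 and of these 4 genes among the 10 libraries. Young replicate C was the highest young library for 6 of the 15 genes and the lowest for 5 (Tsc22d3, Sgk1, Dusp1, Nfkbia and Sesn1). Tsc22d3, which encodes the glucocorticoid-induced protein GILZ, did not share this order, with 794, 916 and 1732 normalized counts labelled Trem1-/- and 456 in young replicate C, the lowest of all. Summed over 11 mesothelial and fibroblast markers, normalized counts were 19.4, 468 and 31.0 in replicates 1, 2 and 3 labelled Trem1-/-, 391 to 673 in aged WT, and 13.9, 9.24, 490 and 24.4 in young replicates A, B, C and E, with up to 6 of the 11 at 0 in a library. Their part in the Nr1d1 levels was not tested.

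**Figure D4:**
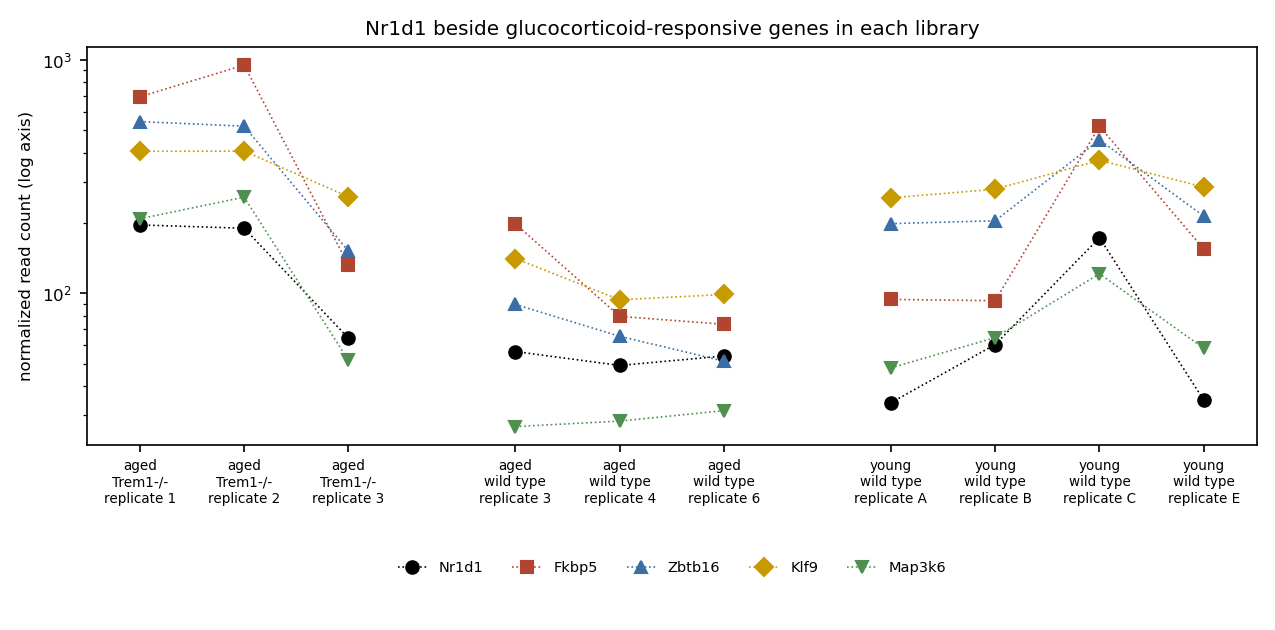
Normalized read counts (vertical log axis) of Nr1d1 and the 4 of 15 glucocorticoid-responsive genes that share its 3 highest libraries, in each library, grouped as aged Trem1-/-, aged WT and young WT; dotted lines only join points of 1 gene within a group. Trem1-/- replicates 1 and 2 and young replicate C are high in all 5 genes, and aged WT libraries are low in Klf9, Zbtb16 and Map3k6.

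The genes whose levels most resembled the difference between the arms were found by Pearson correlation over the 10 libraries, in which the differences between the 3 groups take part. The 5 highest were Ppp6r1 (r = 0.93), Akap13, Ptpn21, Cipc and Ywhaq (r = 0.90 each). Cipc, which encodes a known inhibitor of CLOCK, had 87.9 to 107 normalized counts labelled Trem1-/-, 69.8 to 96.1 in aged WT and 57.3 to 70.9 in young WT. The 5 lowest were BC055324 (r = -0.95), Tubgcp2 (r = -0.94), Pold3 (r = -0.94), Acy1 (r = -0.93) and Gm49417 (r = -0.93). Pold3, a subunit of DNA polymerase delta, had 123 to 135 labelled Trem1-/-, 115 to 131 in aged WT and 144 to 148 normalized counts in young WT. These 10 are among the 13 genes (0.113% of those tested) with an r of at least 0.9 in either direction.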

How the data were processed

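RNA sequencing of 10 macrophage libraries was analysed from a table of normalized counts deposited by the authors, with 1 column per library and their mean (a signal, not whole counts). Tools named in the submitters' processing notes are featureCounts 1.5.0-p3, STAR, fastp and DESeq2 1.20.0, on build GRCm38. Every value (100%, tolerance 1e-06) was a whole multiple of 1 number per library, so reads were recovered. The authors deposited, beside these, their own test of aged over young WT, as log2 fold change and error, Wald score, p-value and adjusted p.

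The 11506 genes averaging 10 or more normalized counts were tested on log2(normalized count + 1) by limma-trend (R 4.3.3, limma version 3.58.1), all 10 libraries in 1 model of 3 groups, with Benjamini-Hochberg adjustment at 0.05 over all tested genes. On this scale fold changes of low genes are understated. An unadjusted limma p under 0.05 was reached by 5033 of the tested genes in aged against young WT. It was reached by 3914 in Trem1-/- against aged WT and 1654 in Trem1-/- against young WT. Recovered read counts were also tested with edgeR 4.0.16 (quasi-likelihood; 3753, 2084 and 80 genes called in aged against young WT, Trem1-/- against aged WT and Trem1-/- against young WT) and DESeq2 1.42.0. The limma and edgeR fits were also run on simulated data, which held no difference in composition between groups. The outcome is not given here, and no result rests on it. Gene models and exon overlaps came from GENCODE M21 (GRCm38), and promoters from RefSeq. Named genes are the 10 members, genes of the listed pathways, and the 5 genes most and the 5 least like the difference between the arms. Members and lists were chosen with earlier results of these data known. The floor of 3 reads covers counting error only, as the reads carry no molecular identifiers that would count molecules.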

Additional observations from a re-analysis of the deposited data

Results flagged for a closer look

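Among the 10 clock genes in the 4 young WT libraries, 1 value stood far from the others of its group. Nr1d2 had 148.9 normalized counts in young replicate C, and the gap to the next library took 0.90 of the range of the group, above the critical value of 0.829 for 4 samples. Chance flags about 1 in 20 such groups, and 10 were examined. The aged groups have 3 libraries each and were not examined this way.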

How the results depend on the processing

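Alternatives changed the pseudocount, the filter, the scaling, the libraries in the fit or the test, or left out 1 library. Of 558 such values for the 10 genes in 3 comparisons, 510 kept their sign and their side of the threshold, 19 lost a call, 15 gained one and 14 changed sign, all 14 in estimates that had not passed. The cause was not tested. The number of genes called in aged against young WT was 5 and ranged from 2 to 5 when 1 library was left out. It was 2 with a mean of at least 50, where 6 of the 10 genes were left to test, and 7 with totals that leave out Gm26917 and mitochondrial genes. For libraries labelled Trem1-/- against aged WT it was 1, ranged from 0 to 1 with 1 library left out, and was 0 with no filter and with a mean of at least 50. Against young WT it was 0, ranged from 0 to 2 with 1 library left out, and was 2 with no filter, 2 with the 2 groups alone and 3 with DESeq2. Scaling to totals without Gm26917 and mitochondrial genes moved the median log2 fold change of all genes from -0.02 to 0.16 in aged against young WT, and from 0.02 to -0.19 in Trem1-/- against aged WT; genes called higher were then 64.7%, 29.5% and 47.9% of calls in the 3 comparisons, against 42.9%, 62.8% and 64.2%. Under it Nr1d1 was at 0.017 in aged against young WT, and Cry2, Tef and Arntl at -0.12, -0.068 and -0.15 in Trem1-/- against aged WT. With edgeR that Arntl value was -0.023. With 1 library left out, aged against young WT ranged from -0.89 to 0.16 for Per1 and -0.43 to 0.34 for Nr1d1. Trem1-/- against aged WT ranged from -0.21 to 0.63 for Per2, -0.15 to 0.39 for Cry2 (-0.020 and -0.012 without aged WT replicates 4 and 6), -0.079 to 0.30 for Tef and -0.19 to 0.25 for Arntl (-0.050 without Trem1-/- replicate 1). No paired analysis was possible because the groups compared share fewer than 2 replicate numbers. Depth limits Per2, Cry1 and Dbp most, with as few as 10 reads in a young library.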
